A study of Homo sapiens with 6 samples.

Results

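The 10 genes described here encode receptor tyrosine kinases that are studied in glioblastoma: EGFR, ERBB2, ERBB3, ERBB4, PDGFRA, PDGFRB, MET, FGFR1, KIT and AXL. They were chosen by name, with earlier results of these data known, and make up 10 of the 58051 genes in the count tables. All 10 had enough counts to be compared between A172 cells overexpressing RBFOX1 and A172 cells expressing GFP. In RBFOX1 cells KIT was 12.3-fold higher and PDGFRA, which had few counts, rose by 1.59 on the log2 scale. AXL, FGFR1, PDGFRB and ERBB2 rose by smaller amounts. MET fell by 48.6%, and ERBB4, which had few counts, fell as well. EGFR and ERBB3 did not pass the test.

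The A172 line was derived from a human glioblastoma and is long established in culture. Stable lines were made from it by lentiviral transduction with an expression construct for either RBFOX1, an RNA-binding protein of neurons and muscle, or GFP as control, so that both groups carry a lentiviral construct. There were 3 biological replicates of each group, and total RNA was depleted of rRNA before stranded paired-end sequencing. Whether a stable line was a pool or a clone was not given in the sources used here, and untransduced A172 cells were not analysed here. The sources also do not make clear whether the replicates of a group were separate transductions or cultures of the same stable line.

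Receptor tyrosine kinases are single-pass membrane proteins. Binding of a ligand brings receptor chains together, the kinase domains phosphorylate each other, and adaptor proteins that dock on the phosphotyrosines start RAS and PI3K signalling. EGFR, PDGFRA and MET are recurrently amplified or mutated in glioblastoma, and AXL is associated with its mesenchymal state. The receptors of this group also differ in what they bind. EGFR and the other ERBB receptors take ligands of the EGF and neuregulin families, PDGFRA and PDGFRB take PDGF dimers, MET takes HGF, FGFR1 takes FGFs, KIT takes stem cell factor and AXL takes GAS6.

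RBFOX1 itself had 4, 0 and 1 counts in the GFP libraries and 10276, 16467 and 21451 counts in the RBFOX1 libraries, which checks the labels. The libraries held between 7433414 and 23249221 counts on genes. RBFOX1 replicate 1 was the shallowest and GFP replicate 1 the deepest, and 3 counts were worth 5.44 normalized counts in the former and 1.82 in the latter. Counts were scaled with edgeR's TMM method to a common library size, which is what a normalized count means here, and p-values from edgeR's quasi-likelihood test were adjusted over 20536 genes. All 6 glioblastoma line markers (VIM, CD44, NES, TNC, CHI3L1 and CAV1) were detected and changed, 3 in each direction. Of 5 glial lineage markers, GFAP had 4 counts or fewer in each library, S100B 2 or fewer and AQP4 none, whereas OLIG2 and SOX2 were detected, the former lower and the latter higher in RBFOX1 cells. Counts from bulk RNA cannot tell more cells of a kind from more RNA per cell.

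The motif bound by RBFOX proteins is written TGCATG in DNA letters, and RBFOX1 can act on an mRNA through its 3' UTR as well as on splicing. It was searched on the sense strand of the annotated 3' UTR of each receptor's canonical transcript (GENCODE release 44, GRCh38). Of the 10 receptor genes 6 held at least 1 match, with 10 matches in all, compared with 33.4% of 19238 protein-coding genes. The share rises with length, and among genes whose 3' UTR was within 20% of the length it was 82.5% for EGFR (6011 nucleotides), 88.6% for ERBB4 (7898 nucleotides), 50.3% for MET (2253 nucleotides), 48.3% for KIT (2158 nucleotides), 58.9% for PDGFRA (2973 nucleotides) and 34.2% for ERBB3 (1450 nucleotides). For the receptors without a match it was 16.4% for ERBB2 (614 nucleotides), 43.7% for PDGFRB (1924 nucleotides), 54.6% for FGFR1 (2485 nucleotides) and 42.1% for AXL (1862 nucleotides). Set against shares of this size, 6 of 10 is near the background for the length of these 3' UTRs. The matches in KIT, PDGFRA, MET and EGFR and the first of the 3 in ERBB4 are shown to place the motif. TGCATG is in capitals and the flanking bases are in lower case.
KIT at chr4:54739134-54739139, plus strand: tgtggaccacTGCATGagcttttata
KIT at chr4:54739535-54739540, plus strand: actgattcacTGCATGgctcccacag
PDGFRA at chr4:54295764-54295769, plus strand: tttaaagaagTGCATGaaaaaccatt
PDGFRA at chr4:54297563-54297568, plus strand: ctgtgagcctTGCATGacatcatgag
MET at chr7:116797564-116797569, plus strand: tactgtatagTGCATGtggtgtaggt
EGFR at chr7:55210129-55210134, plus strand: aaaatccagtTGCATGccatactctc
ERBB4 at chr2:211383386-211383391, minus strand: ttcatttctcTGCATGggttggtcag
These positions begin 577 and 978 nucleotides past the stop codon in KIT, 492 and 2291 in PDGFRA, 1440 in MET, 4512 in EGFR and 224 in ERBB4. ERBB4 had 3 matches in all and ERBB3 had 1. The 3' UTRs of ERBB2, PDGFRB, FGFR1 and AXL held none. The log2 fold changes of the receptors with a match were 3.62 for KIT, 1.59 for PDGFRA, -1.30 for ERBB4 and -0.96 for MET. EGFR at -0.12 and ERBB3 at 0.30 also held a match and did not pass the test. The 4 without one rose by log2 fold changes of 0.19 to 0.46. Whether the motif has a part in these changes was not tested. A match is a stretch of letters, and binding was not measured.

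With the threshold at 0.05 for edgeR's adjusted p, RBFOX1 cells had 6 of the 10 receptors higher and 2 lower. Of all genes tested 46.6% passed, 23.7% as higher and 22.9% as lower. The share was 63.8% for genes whose normalized counts averaged 50 or more, and 6 of the 7 receptors at that level passed. The groups did not overlap in 8 of the 10 receptors and in 53.4% of all genes tested. The median log2 fold change was 0.25 over the 10 receptors and 0.0051 over all genes tested. The members were chosen with earlier results of these data known, so these shares describe the receptors and are not evidence about them as a class.

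**Figure D1:**
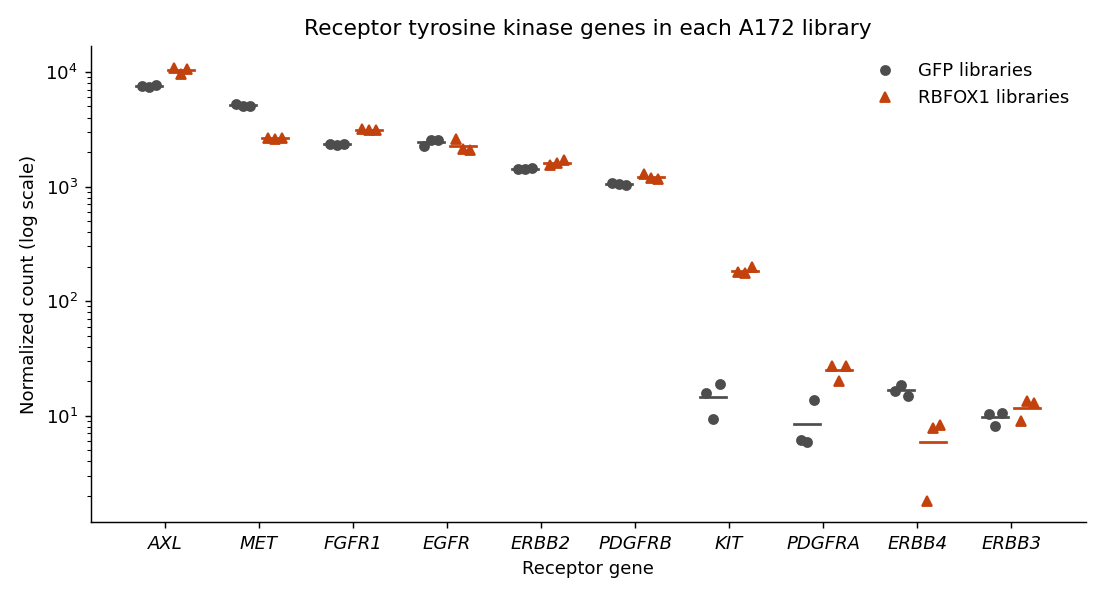
Normalized counts of the 10 receptor genes on a log axis, with 1 point for each of the 3 GFP libraries (grey circles) and the 3 RBFOX1 libraries (red triangles), and a line at each group's mean. AXL and MET lie highest, KIT moves from a mean of 14.7 to 185, and the ERBB4 value of 1.81 belongs to RBFOX1 replicate 1.

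**Figure D2:**
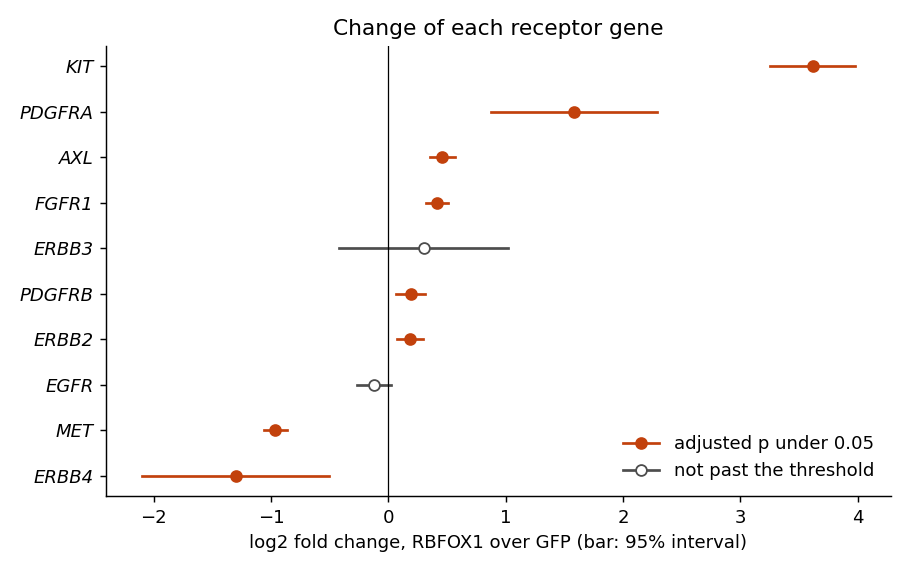
Log2 fold change of each receptor gene in RBFOX1 over GFP cells (x axis), with the 95% interval of the edgeR fit as a bar, filled where the adjusted p was under 0.05. KIT lies at 3.62 and MET at -0.96, and the wide bars of PDGFRA, ERBB3 and ERBB4 belong to genes with few counts.

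KIT (ENSG00000157404, chromosome 4, 54657267 to 54740783, plus strand), the receptor of stem cell factor in germ cells, melanocytes and blood progenitors, changed most. It had 26, 8 and 18 counts in the GFP libraries and 99, 160 and 216 in the RBFOX1 libraries. After normalization these were 15.8, 9.34 and 19.0 against 180, 178 and 197, so the lowest RBFOX1 library stood far above the highest GFP library. KIT's log2 fold change was 3.62 (standard error 0.172, 95% interval 3.26 to 3.98, adjusted p = 8.21e-13). By absolute log2 fold change KIT stood at percentile 98.6 of all genes tested.
PDGFRA (ENSG00000134853), the PDGF receptor that marks oligodendrocyte progenitors, lies upstream of KIT on chromosome 4 from 54229280 to 54298245, also on the plus strand, with 359 kb between the genes. It rose from 10, 5 and 13 counts to 15, 18 and 30 counts, or from a mean of 8.53 ± 4.47 to 24.9 ± 4.23 normalized counts (SD, n = 3 each). The groups were separate after normalization, but GFP replicate 3, at 13.7, lay well above the other GFP libraries. On the log2 scale the rise was 1.59 (standard error 0.338, adjusted p = 0.000595). An overlapping protein-coding gene (ENSG00000282278) shares 1533 of the 9547 exonic bases of PDGFRA on the same strand and had no count in any library. Read pairs that fit both genes were counted for neither.
KDR, a VEGF receptor gene 338 kb on the far side of KIT, was looked up after these values were seen. Its counts were 17, 6 and 6 under GFP against 7, 3 and 4 under RBFOX1. On the log2 scale it had -0.57 (standard error 0.505) and did not pass the test (adjusted p = 0.390).

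MET (ENSG00000105976, chromosome 7, 116672196 to 116798377, plus strand), the HGF receptor, fell. Its normalized counts were 5278, 5078 and 5057 in the GFP libraries and 2652, 2601 and 2665 in the RBFOX1 libraries. The replicates of each group lay within a few percent of each other, with means of 5138 ± 122 and 2639 ± 33.4 (SD, n = 3 each), and the groups were far apart. In the edgeR fit the log2 fold change of MET was -0.96 (standard error 0.0464, 95% interval -1.06 to -0.86, adjusted p = 1.03e-12), a level 1.95-fold lower. The median absolute log2 fold change of all genes tested was 0.38.

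AXL (ENSG00000167601, chromosome 19, 41219223 to 41261766, plus strand), a receptor of the TAM family, had the highest level per exonic length of the 10 in every library. It had 7530, 7331 and 7712 normalized counts in GFP cells and 10923, 9636 and 10535 in RBFOX1 cells. All RBFOX1 libraries lay above all GFP libraries, and the rise was 0.46 on the log2 scale (standard error 0.0518, adjusted p = 2.97e-07).
FGFR1 (ENSG00000077782, chromosome 8, 38400215 to 38468834, minus strand) binds FGFs together with heparan sulfate. Its normalized counts rose from 2372, 2318 and 2351 to 3171, 3133 and 3090, again without overlap. This was a 1.33-fold rise, 0.41 on the log2 scale (standard error 0.0463, adjusted p = 2.80e-07). LETM2 overlaps 138 exonic bases of FGFR1 on the other strand.
PDGFRB (ENSG00000113721, chromosome 5, 150113839 to 150155872, minus strand), the PDGF receptor of pericytes and other mesenchymal cells, had 1081, 1059 and 1037 normalized counts in GFP cells and 1297, 1190 and 1155 in RBFOX1 cells. Its rise was small, at 0.19 on the log2 scale (standard error 0.0577, adjusted p = 0.0103), although the groups did not overlap.

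The ERBB receptors went different ways. ERBB2 (ENSG00000141736, chromosome 17, 39687914 to 39730426, plus strand), which has no known ligand and pairs with the other ERBB receptors, had 1413, 1426 and 1447 normalized counts in GFP cells and 1545, 1604 and 1711 in RBFOX1 cells. It rose by 13.8%, or 0.19 on the log2 scale (standard error 0.0534, adjusted p = 0.00691). Without RBFOX1 replicate 3, the highest library, it was 0.15 and did not pass (adjusted p = 0.0642). Exons of MIEN1 and PGAP3 overlap those of ERBB2 on the other strand by 571 and 144 bases, and counting was set to the strand that the library kit marks.
EGFR (ENSG00000146648, chromosome 7, 55019017 to 55211628, plus strand), the receptor of EGF and TGFA, had 2264, 2573 and 2568 normalized counts in GFP cells and 2601, 2134 and 2097 in RBFOX1 cells. RBFOX1 replicate 1 was the highest of all 6 libraries, while the other RBFOX1 libraries were below every GFP library, so the groups overlapped. EGFR had -0.12 on the log2 scale (standard error 0.0708, 95% interval -0.27 to 0.027, adjusted p = 0.178). The call depended on single libraries. It was -0.21 without RBFOX1 replicate 1 (adjusted p = 0.0121) and -0.18 without GFP replicate 1 (adjusted p = 0.0199), both past the threshold, but -0.059 without RBFOX1 replicate 3 (adjusted p = 0.613). EGFR-AS1, the antisense gene within EGFR, had no count in any library.
ERBB4 (ENSG00000178568, chromosome 2, 211375717 to 212538841, minus strand), a neuregulin receptor of neurons and heart, went from 27, 16 and 14 counts under GFP to 1, 7 and 9 under RBFOX1. Every RBFOX1 library was below every GFP library after normalization, with means of 5.93 ± 3.58 and 16.6 ± 1.98 (SD, n = 3 each). ERBB4 had -1.30 on the log2 scale (standard error 0.382, adjusted p = 0.00809 in edgeR), and DESeq2 gave an adjusted p of 0.0650, which did not pass.
ERBB3 (ENSG00000065361, chromosome 12, 56076799 to 56103505, plus strand), whose own kinase is weak and which signals through its partners, had 17, 7 and 10 counts under GFP and 5, 12 and 14 under RBFOX1. The groups overlapped, and its value of 0.30 on the log2 scale (standard error 0.342, adjusted p = 0.519) had a 95% interval from -0.42 to 1.02, which takes in a fall as well as a rise.

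To compare the receptors with each other, CPM (counts scaled to the library's size) were divided by the exonic length of each gene in kilobases. That length joins the exons of all annotated transcripts, from 5134 bases for AXL to 17201 for FGFR1. Which transcripts these cells make was not determined. The order of the receptors and their shares therefore depend on the length chosen, while the change of a single gene between groups does not. On this scale the GFP cells had 106 ± 2.67 of AXL and 51.2 ± 1.22 of MET (SD, n = 3 each), each separate from the next in the order. Below them stood EGFR at 11.2 ± 0.800, PDGFRB at 10.7 ± 0.225, ERBB2 at 9.97 ± 0.123 and FGFR1 at 9.83 ± 0.115. As levels per kilobase, EGFR and PDGFRB did not differ beyond their spread, nor did ERBB2 and FGFR1. Before division by length, ERBB2 averaged 1429 and FGFR1 2347 normalized counts in GFP cells. KIT at 0.0935 ± 0.0312, ERBB4 at 0.0919 ± 0.0109, PDGFRA at 0.0644 ± 0.0337 and ERBB3 at 0.0595 ± 0.00803 were far lower, and each overlapped its neighbour in the order.
In RBFOX1 cells AXL reached 145 ± 9.26 and MET 26.3 ± 0.333 per kilobase (SD, n = 3 each). FGFR1 at 13.1 ± 0.169, PDGFRB at 12.3 ± 0.746, ERBB2 at 11.3 ± 0.587 and EGFR at 10.3 ± 1.27 followed, and each overlapped its neighbour. KIT at 1.18 ± 0.0687 now stood apart from PDGFRA at 0.188 ± 0.0319, from ERBB3 at 0.0721 ± 0.0142 and from ERBB4 at 0.0329 ± 0.0198. KIT thus remained well below the 6 abundant receptors in spite of its rise.
The levels of the 10 receptors summed to 200, 196 and 201 in the GFP libraries and to 230, 209 and 222 in the RBFOX1 libraries, a ratio of means of 1.11. With the length of the longest transcript the ratio was 1.13, and the shares are given for the joined exons only. AXL took 53.1 ± 0.653% of the sum in GFP cells and 66.0 ± 1.02% in RBFOX1 cells, and MET took 25.8 ± 0.653% and 12.0 ± 0.472% (SD, n = 3 each). The ratio of AXL to MET was 2.01, 2.03 and 2.15 in the GFP libraries and 5.80, 5.21 and 5.56 in the RBFOX1 libraries. KIT made up 0.0469 ± 0.0151% and 0.534 ± 0.0349% of the sum. No test was run on these sums and shares.

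**Figure D3:**
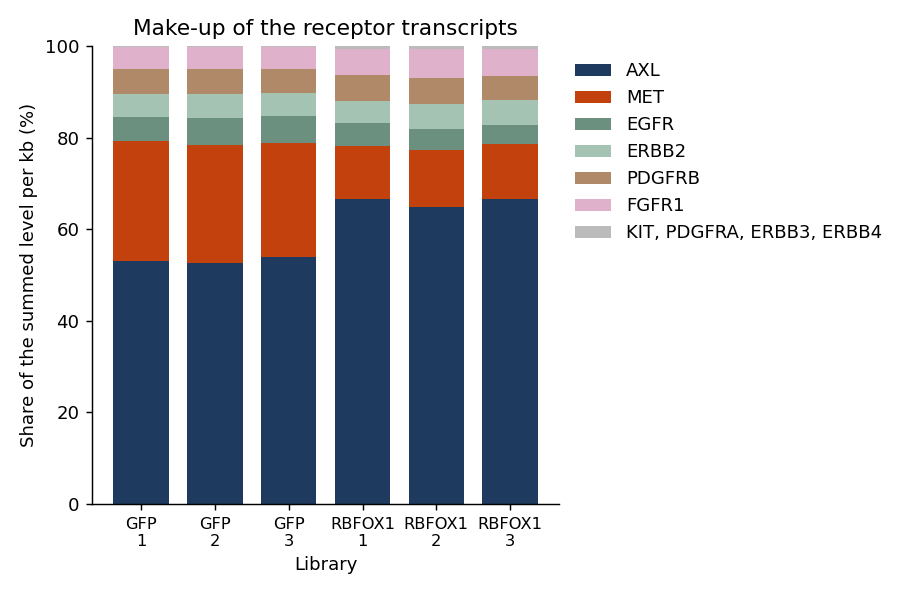
Share of each receptor in the summed level per kilobase of the 10 genes (y axis, percent) in each of the 6 libraries, with 1 stacked bar a library. MET takes 25.1 to 26.4% in the GFP bars and 11.5 to 12.4% in the RBFOX1 bars, and AXL takes most of the rest.

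The human genome encodes 58 receptor tyrosine kinases, and the 48 outside the group were listed by family. Of these, 36 had enough counts, with 14 higher and 10 lower under RBFOX1. Their median log2 fold change was 0.21. It was 0.16 where each gene that never passed 3 counts in a group was entered at its bound, the fold computed against 3 counts. The share called among these 36 was 66.7%, beside 46.6% of all genes tested and 63.8% of those averaging 50 normalized counts or more. The largest rises by rule were those of FLT4, TEK and FLT1, receptors of vascular growth factors, with log2 fold changes of 1.61, 1.52 and 1.13 (standard errors 0.0882, 0.110 and 0.0908). The largest falls by rule were those of the ephrin receptors EPHB2 and EPHA2 and of LTK, with -1.62, -1.18 and -0.79 (standard errors 0.0622, 0.0533 and 0.143). EPHA2 went from 5297 ± 191 normalized counts to 2346 ± 152 (SD, n = 3 each).
Of the other vascular receptors in the list, KDR had -0.57 and TIE1, an orphan relative of TEK, had 0.49 on the log2 scale, and neither passed (adjusted p = 0.390 and 0.365). TIE1 was looked up after its values were seen. Endothelial markers rose beside FLT4, TEK and FLT1. PECAM1, CDH5 and VWF rose, CLDN5 had at most 1 count in a library, and the summed level of the 4 was 0.787 to 0.925 CPM in GFP and 6.97 to 7.84 in RBFOX1 libraries. Of the other marker lists, 2 of 4 neuron, 1 of 3 oligodendrocyte, 1 of 4 immune and 2 of 3 epithelial markers rose and none fell, while MOG and AIF1 were at 0 in every library. Their summed CPM in GFP and RBFOX1 libraries were 0.986 to 1.26 and 6.27 to 9.20 for neuron, 0.0759 to 0.175 and 1.12 to 1.18 for oligodendrocyte, 1.09 to 2.54 and 3.92 to 5.20 for immune, and 0.607 to 1.01 and 3.53 to 4.80 for epithelial markers. The part of these markers in the changes of KIT, FLT1, FLT4 and TEK was not tested.
The closest relatives of the 10, taken by family after their values were seen, split as well. In the TAM family, MERTK rose with AXL (log2 fold change 1.09, standard error 0.210), whereas TYRO3 fell by 0.43 on the log2 scale (standard error 0.0659). MST1R, the relative of MET, fell by 0.95 (standard error 0.228), and CSF1R, in the family of KIT and the PDGF receptors, rose 2.01-fold (standard error 0.276 on the log2 scale). FGFR3 and FGFR4 had log2 fold changes of 0.20 and 0.21 (standard errors 0.111 and 0.124) and did not pass, and FGFR2 had 1 count in all. ROS1 rose from 19, 10 and 10 to 55, 71 and 94 counts, and ALK from 3, 0 and 1 to 7, 21 and 19 counts.

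**Figure D4:**
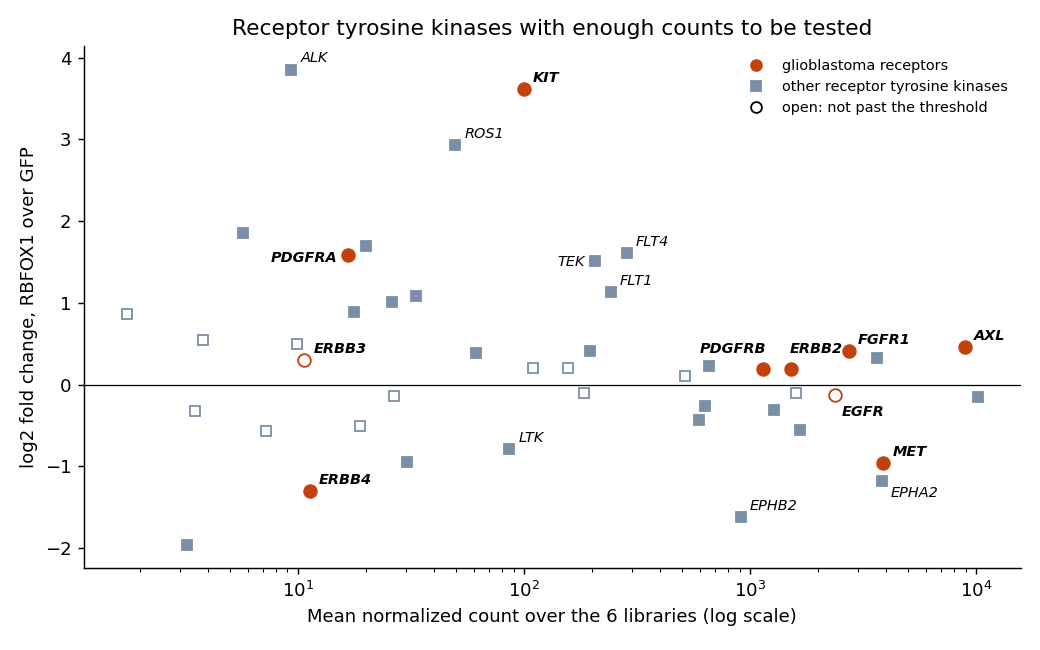
Log2 fold change between RBFOX1 and GFP cells (y axis, positive where RBFOX1 is higher) against the mean normalized count over the 6 libraries (log x axis) for the 46 receptor tyrosine kinase genes tested, with the 10 glioblastoma receptors as circles and open symbols for genes that did not pass. KIT at 3.62 lies beside ALK and ROS1, of which ALK had 3 counts or fewer in each GFP library so that its fitted value depends on the prior count.

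The ligands of these receptors were taken from lists of 37 genes in all, of which 22 were tested. In RBFOX1 cells 6 were higher and 9 lower, and HGF, the ligand of MET, had no count in any library. Of the ERBB, PDGF and FGF ligands tested 71.4%, 75% and 62.5% passed, and of those of MET, KIT and AXL 66.7%. Beside these stand 46.6% of all genes tested and 63.8% of those averaging 50 normalized counts or more.
For the ERBB receptors, TGFA, which binds EGFR, fell from 225, 224 and 228 to 38.1, 45.5 and 42.0 normalized counts, which is -2.41 on the log2 scale (standard error 0.123, adjusted p = 2.40e-12). EGF and HBEGF, further EGFR ligands, fell by 1.12 and 0.56 on the log2 scale (standard errors 0.196 and 0.0870). The neuregulins, which bind ERBB3 and ERBB4, went both ways. NRG1 rose from 86.2, 112 and 86.4 to 423, 375 and 408 normalized counts (log2 fold change 2.10, standard error 0.105), while NRG2 fell by 1.46 (standard error 0.130). AREG had no count and EREG, EPGN and NRG4 had 2 or fewer in a library, and BTC and NRG3, with 5 or fewer, did not pass.
For FGFR1, FGF2 rose from 2082, 2042 and 2264 to 5679, 5546 and 5684 normalized counts, or by 1.40 on the log2 scale (standard error 0.0503, adjusted p = 1.18e-14). FGF1 and FGF5 rose by 1.05 and 0.83 (standard errors 0.147 and 0.189), FGF10 went from 1, 0 and 0 counts to 6, 14 and 10, and FGF17 fell by 1.09 (standard error 0.309). Of the 18 FGF genes 8 were tested, with 4 higher, 1 lower and a median of 0.94, or 0.73 at the bounds.
For the PDGF receptors, PDGFD, which acts mainly on PDGFRB, rose by 1.31 on the log2 scale (standard error 0.109), PDGFC and PDGFA fell by 0.81 and 0.36 (standard errors 0.0661 and 0.0756), and PDGFB had -0.060 (standard error 0.0885, adjusted p = 0.622). GAS6 and PROS1, ligands of the TAM receptors, fell by 0.93 and 0.59 (standard errors 0.0682 and 0.0552), while AXL, which binds GAS6, rose. KITLG, the stem cell factor gene, averaged 229 ± 22.3 normalized counts under GFP and 252 ± 26.1 under RBFOX1 (SD, n = 3 each) and did not pass (log2 fold change 0.14, adjusted p = 0.283), beside the rise of its receptor KIT.

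**Figure D5:**
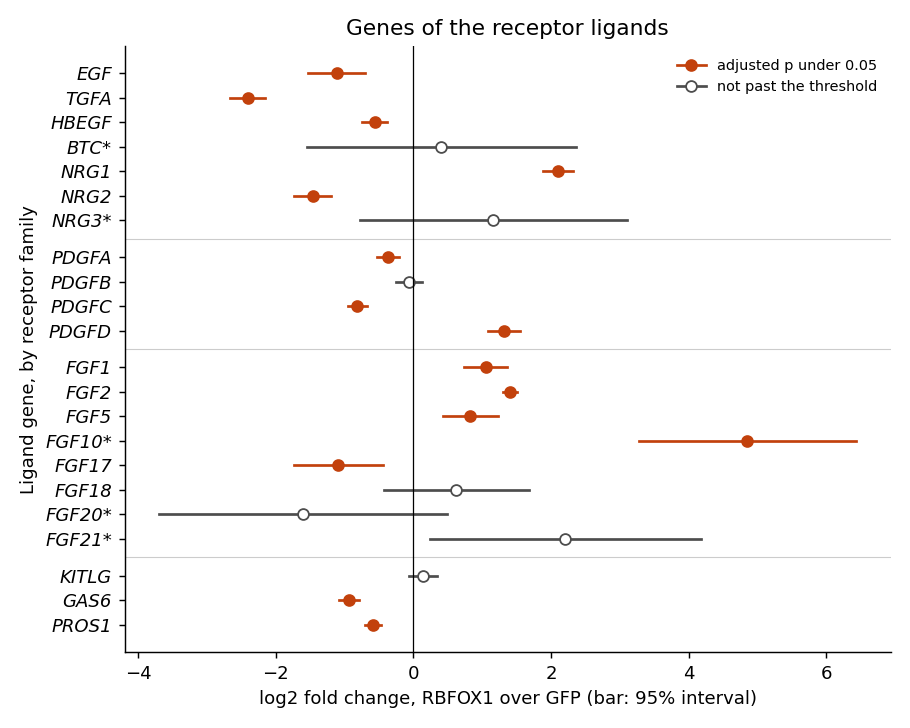
Log2 fold change of the 22 tested ligand genes in RBFOX1 over GFP cells (x axis) with 95% intervals, grouped by receptor family (ERBB, PDGF, FGF, then KIT and AXL). TGFA lies at -2.41 and NRG1 at 2.10, and an asterisk marks genes that never passed 3 counts in a group, whose position depends on the prior count.

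Of 14 co-receptor and ligand-processing genes tested, 2 rose, 7 fell and 5 did not pass, with a median of -0.56 on the log2 scale, or -0.37 at the bounds. The share called was 64.3%, beside 46.6% of all genes tested and 63.8% of those averaging 50 normalized counts or more. SDC4, a syndecan that binds FGFs, fell by 2.13 on the log2 scale (standard error 0.0606), NRP1 by 1.90 (standard error 0.0496) and PLAT, whose protease activates PDGFC, by 1.23 (standard error 0.0526). NRP2 rose by 1.41 (standard error 0.0927). ADAM17 and ADAM10, the proteases that release TGFA, HBEGF and EGF from the membrane, fell by 0.93 and 0.67 (standard errors 0.0482 and 0.0563). They lie outside the naming rule and were chosen after their values were seen.
Attenuators of the receptors split evenly, with 4 of 13 tested higher and 4 lower (61.5% called, beside the same 46.6% and 63.8%). PTPN1, LRIG1 and CBLB rose by 0.87, 0.57 and 0.53 on the log2 scale (standard errors 0.0506, 0.0521 and 0.0688), and SH2B3, UBASH3B and LRIG2 fell by 0.74, 0.45 and 0.45 (standard errors 0.0471, 0.0801 and 0.0678).
Of 27 adaptor and RAS activation genes tested, 11 rose and 5 fell (59.3% called), with a median of 0.058. IRS2, PLCG2 and GAB2 rose by 1.13, 1.11 and 0.95 on the log2 scale, and NCK2, SOS2 and NCK1 fell by 0.66, 0.62 and 0.40, with standard errors of 0.0617 to 0.108. Of 20 PI3K and AKT pathway genes tested, 7 rose and 4 fell (55% called), with a median of 0.056. PIK3R3, a regulatory subunit of PI3K, rose 4.43-fold, from 133 ± 8.58 to 589 ± 51.6 normalized counts (SD, n = 3 each). PIK3IP1 and PIK3CB rose by 1.45 and 0.52 (standard errors 0.151 and 0.109), and PIK3CD and PIK3CA fell by 0.39 and 0.31 (standard errors 0.0803 and 0.0586).

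The protein-coding genes whose pattern over the 6 libraries lay closest to that of KIT were DGKI, INHBA and HAPLN1. The measure was the root mean square difference of centred log2 CPM, among 11068 genes averaging 50 normalized counts or more, and it was 0.109, 0.116 and 0.132. Since the libraries form 2 groups, closeness on this measure is mainly a like fold change. DGKI went from 10, 3 and 6 counts to 58, 83 and 127, and INHBA had 13, 5 and 9 against 71, 103 and 133.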

How the data were processed

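RNA from 6 A172 libraries, 3 GFP and 3 RBFOX1, was measured. The authors aligned reads to GRCh38 with HISAT2, used HTSeq-count (intersection-strict, reverse-stranded) with Ensembl gene models, and deposited the raw counts of each library without normalization. Tool versions were not given in the sources used here. A deposited table of the authors' own DESeq2 comparison (fold changes and p-values) was not used. The 5 lines of each table that name no gene stayed out of library sizes, and 52.0 to 61.9% of read pairs were counted on a gene.

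Here TMM scaling and the two-sided quasi-likelihood test of edgeR (version 4.0.16 under R 4.3.3) were applied. The model held condition alone, and p-values were adjusted by Benjamini-Hochberg across the genes that reached 10 counts over the 6 libraries. P-values set the difference between the groups against the spread among the libraries within each group. That spread covers variation between separately made stable lines only if the replicates were separate transductions. Genes were called at 0.05. Standard errors are the log2 fold change over the root of the F statistic. The lowest chi-square per degree of freedom between replicates was 1.60, so no library was counted as a duplicate. Pairs with GFP replicate 1, the deepest library, had 8.08 and 8.23, and the remaining pairs within a group had 1.60 to 2.80. Limits and bounds at 3 counts cover counting error only. Symbols, exonic lengths and 3' UTRs came from GENCODE release 44, a later annotation than the one used for counting, and 98.1% of identifiers matched. On simulated counts, edgeR recovered 200 of 200 genes changed by a log2 fold of 1, with 7 false calls among 207, over 20087 genes. The changed genes were a far smaller share than the 46.6% of genes called in the data. The simulation therefore does not give the error rate in these data. Nor does it give the power for receptors with few counts, whose standard errors were 0.338 to 0.382.

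Named were all members, RBFOX1, ligands with at least 10 counts, and in each other list the 3 largest rises and 3 largest falls among called genes whose groups were separate and whose normalized counts averaged 50 or more, plus the 3 genes nearest in pattern to KIT. A gene that this rule names is not reported here. Members and lists were chosen with earlier results of these data known. DESeq2 (1.42.0), limma-voom (3.58.1), other scalings and filters, thinned counts, a replicate block, other thresholds and the omission of each library were run as alternatives.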

Additional observations from a re-analysis of the deposited data

How the results depend on the processing

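Each receptor was put through 17 alternatives (ERBB3 through 16). The threshold of 0.01 and the minimum absolute log2 fold change of 1 reused the main fit, so direction could not change there. KIT, PDGFRA and ERBB3 kept their side of the threshold in all alternatives, and no receptor reversed its direction in a refit. The log2 fold change of PDGFRA, which had few counts, ran from 1.20 to 2.02 over the alternatives. With DESeq2, ERBB4 no longer passed (log2 fold change -1.37, adjusted p = 0.0650) and 7 PI3K and AKT genes were called in place of 11. Over fits that left out 1 library, the log2 fold change of EGFR lay between -0.21 and -0.059 and that of ERBB2 between 0.15 and 0.23, and 7 to 9 of the 10 receptors were called.
A threshold of 0.01 left PDGFRB (0.19) uncalled and 7 PI3K and AKT genes called. A minimum absolute log2 fold change of 1 left out ERBB2 (0.19), PDGFRB (0.19), MET (-0.96), FGFR1 (0.41) and AXL (0.46). It left 3 receptors called (KIT, PDGFRA and ERBB4) and 2611 of 9580 genes in all, with 12 other receptor tyrosine kinases, 1 PDGF ligand, 0 of the ligands of MET, KIT and AXL, 5 co-receptor and ligand-processing genes, 0 attenuators, 2 adaptors and 2 PI3K and AKT genes.
The replicate numbers did not pair the libraries, with correlations of -0.19, 0.041 and -0.058 between same-numbered deviations from the group means. With the replicate block the receptors called stayed at 8 and all genes called went to 9046, with log2 fold changes of 3.61 for KIT and -0.96 for MET. Scaling by total counts moved the median of all genes to 0.055 and the split of calls to 5418 higher and 4153 lower, against 4869 and 4711, and no receptor changed its call under either. Genes near 3 counts in a library, such as ERBB4 in RBFOX1 replicate 1, cannot be measured precisely at this depth.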

Other observations

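The share of read pairs that HTSeq-count set aside as falling on more than 1 gene was 8.89 to 9.35% in the GFP libraries and 6.89 to 7.94% in the RBFOX1 libraries, without overlap. On the same strand, PDGFRA shares 1533 exonic bases and ERBB3 shares 31 with another protein-coding gene. Such pairs are lost from the counts of these receptors. The effect of the lost pairs on their fold changes was not tested.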
